A study of Homo sapiens with 16 samples.

Results

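The contractile actin cytoskeleton genes are 10 genes whose products form or regulate contractile actin filaments, and they were taken by symbol from the expression table of a stepwise gemcitabine-resistant bladder cancer cell line. TAGLN, ACTA2, ACTG2, CNN1, CNN2, MYL9, TPM1, TPM2, CALD1 and LMOD1 were all among the 39007 gene symbols of the table. They were chosen by their log2 expression values in these same libraries, mainly the differences between phases. These values are therefore given as a description, with standard errors and without p-values. Counts of these genes past a threshold are descriptive too, and are no test of the genes. T24 is an established cell line from a human bladder cancer, and the GRC1 cell line was raised from it by repeated exposure to gemcitabine, a nucleoside analogue used in chemotherapy. The measured RNA came from T24 cells before exposure, called parental phase P0, and from GRC1 cells at phases P3 (early), P7 (intermediate) and P15 (late), with 4 libraries for each phase and the same serum-containing medium throughout. GRC1 is a line from 1 selection series and P0 received no gemcitabine, so that exposure, time in culture and selection of cells cannot be told apart. The labels do not say that replicate libraries came from separate cultures, and p-values then measure the spread between these libraries, which may be technical.

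Contractile actin bundles are built from actin filaments and bipolar myosin II filaments. Tropomyosins lie along the actin filament, calponins, caldesmon and transgelin bind to it, and phosphorylation of the myosin regulatory light chain sets the activity of the motor. Many of these genes carry a CArG box, the binding element of serum response factor (SRF), whose coactivators of the myocardin family (MRTFA, MRTFB and MYOCD) respond in part to the pool of free actin monomers. Smooth muscle holds the highest levels of most of them, and stress fibres of other adherent cells use several.

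Promoter sequences from RefSeq (GRCh38.p14, 250 bases before to 50 after each annotated start) were matched for 8 of the 10 genes, all except TAGLN and MYL9. A CArG box, searched by this name as a palindrome read alike on both strands, was in 2 of these 8 genes and in 438 of 27305 genes with an entry (1.6%). Of the other SRF-MRTF target genes described below, 7 of the 12 with an entry held a box (58.3%). The stretches that hold the boxes are printed because these letters are what a description of the genes as SRF-type rests on here, with the box in capitals, 5′ to 3′ on the strand of the gene and ending before the start. ACTG2 held 2 boxes at chr2:73892873-73892969 (plus strand) and CNN2 held 1 at chr19:1026494-1026553 (plus strand). A box with 1 departing base, and none without, was in 2 further genes of the 8. Of all genes with an entry, 8.46% held a box with 1 departing base, counted with or without a full box beside it. ACTA2 held 2 of these at chr10:88952810-88952919 (minus strand), and CALD1 held 1 at chr7:134711448-134711498 (plus strand), before 1 of its 4 listed starts. The SRF gene itself held 2 boxes at chr6:43171214-43171268 (plus strand).
ACTG2: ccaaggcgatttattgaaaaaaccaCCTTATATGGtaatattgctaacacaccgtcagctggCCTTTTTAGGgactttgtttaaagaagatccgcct
CNN2: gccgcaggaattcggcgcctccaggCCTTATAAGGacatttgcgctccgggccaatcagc
ACTA2: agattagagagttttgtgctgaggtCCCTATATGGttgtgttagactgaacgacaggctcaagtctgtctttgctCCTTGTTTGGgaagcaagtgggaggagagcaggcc
CALD1: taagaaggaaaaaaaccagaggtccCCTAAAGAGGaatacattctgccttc
SRF: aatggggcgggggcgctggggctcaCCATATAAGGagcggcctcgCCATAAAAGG
A match describes the letters only, and no binding was measured.

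Values are log2 of CPM (read counts scaled to the same total in every library) plus 1, as deposited, and a log2 fold change is a difference on that scale, which understates changes of genes near 1 CPM. CPM is not corrected for gene length, so levels were compared between phases and not between genes. The step between the lowest values put the total at 33.8 to 50.03 M counts per library. Genes with a mean above 1 CPM were tested with limma over all 16 libraries, 13249 in all, and a gene was called where the Benjamini-Hochberg adjusted p was below 0.05 and the log2 fold change was 1 or more in either direction. Of the contractile genes, 7 were above that level, while CNN1, ACTG2 and LMOD1 were below it. As a check of the cell type, KRT7, KRT8 and KRT18, keratins of simple epithelia and urothelium, were expressed in all 4 phases. Of the same marker list, KRT19 fell from a log2 mean of 6.43 in P0 to 0.0175 in P15, and EPCAM from 2.675 to 0.855. CDH1 (E-cadherin) was at or near 0 in all phases. The defining markers of differentiated smooth muscle (MYH11, DES, MYOCD, KCNMB1 and CASQ2) summed to at most 1.22 CPM in any library, with CASQ2 listed at 0 in all of them, so that 0 of 5 reached 1 CPM on average. One library stood apart by fibroblast markers, P3 replicate 3, whose 7 markers summed to 6.16 CPM against 1.78 to 2.48 CPM in the other P3 libraries, with COL3A1 at a log2 value of 1.61 against 0 to 0.08. Without it, TAGLN was the 1 contractile gene called in P3 against P0 (log2 fold change 3.07) and in P7 against P3 (-3.41), as with it, and CNN2 no longer passed the adjusted p in either. In bulk RNA, fewer cells that express a gene and less RNA per cell cannot be told apart.

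The late phase P15 had the lowest mean of all 7 tested contractile genes, and the early phase P3 had the highest mean of 4 of them. In P3, TAGLN stood 3.05 log2 units above P0, and in P15 MYL9 stood at -3.45 against P0. Of all tested genes, 38.5% had their lowest mean in P15 and 20.1% their highest in P3. The plot of the 7 genes by library shows both patterns.

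**Figure D1:**
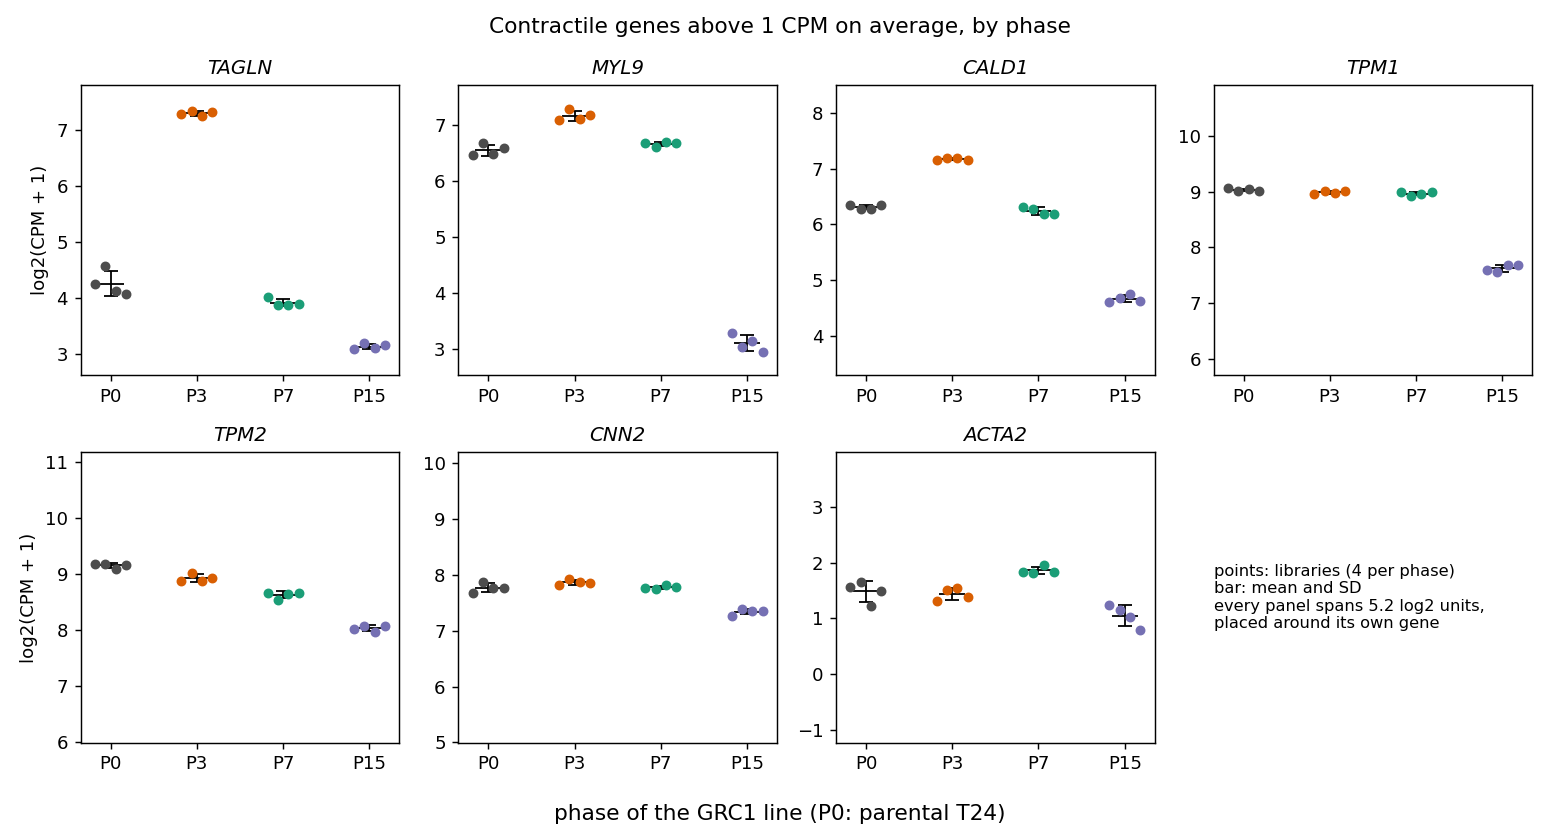
Log2(CPM + 1) of the 7 contractile genes above 1 CPM on average (y axis, every panel spanning 5.2 log2 units) by phase of the GRC1 cell line (x axis), with points for the 4 libraries of a phase and bars for the mean and SD. TAGLN has a mean of 7.30 in P3 against 4.26 in P0, MYL9 has 3.11 in P15 against 6.56 in P0, and CNN2 and ACTA2 move less.

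TAGLN (chr11:117199370-117207464, plus strand) encodes transgelin, also called SM22, an actin-binding protein of the calponin family that is abundant in smooth muscle. Its log2 values in replicates 1 to 4 were 4.25, 4.57, 4.12 and 4.08 in P0, and 7.29, 7.35, 7.25 and 7.33 in P3. In P7 they were 4.01, 3.88, 3.87 and 3.90, and in P15 3.08, 3.19, 3.10 and 3.16. All 4 P3 libraries were far above every other library, and no pair of phases overlapped, although the lowest P0 library was close to the highest P7 library. From P0 to P3 the log2 fold change was 3.05 (SE 0.073), or 8.60-fold in mean CPM. From P3 to P7 it was -3.39 (SE 0.073), or 11.2-fold lower, which returned the gene to slightly below its P0 level. P15 was lower again, by -0.78 against P7 and -1.12 against P0 (SE 0.073 each).

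The position of TAGLN bears on how far these counts belong to it alone. Of its 6550 exonic bases in GENCODE, 47.8% are shared with exons of other genes, 34.1% with PCSK7 on the opposite strand and 38.1% with an unnamed transcript on the same strand (the shared bases overlap in part). The strand setting of the counting is not given in the sources used here. PCSK7, a proprotein convertase, had log2 means of 5.08, 5.27, 5.08 and 4.51 along the phases from P0 to P15, with a log2 fold change of 0.20 (SE 0.051) in P3 against P0. By mean CPM, which counts reads and not molecules, TAGLN was the larger only in P3, with 157 beside 37.7 for PCSK7. Before exposure, P0 had 32.8 CPM of PCSK7 and 18.3 of TAGLN. The same pair stood at 32.7 and 14.1 by P7, then at 21.8 and 7.77 by P15. PCSK7 also fell in P15 against P0, with a log2 fold change of -0.57 (SE 0.051) beside -1.12 for TAGLN. A share of PCSK7 reads in the TAGLN count was not tested.

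MYL9 (chr20:36541497-36551447, plus strand) encodes a regulatory light chain of smooth muscle and non-muscle myosin II, the subunit phosphorylated by myosin light chain kinase. Log2 values were 6.47, 6.68, 6.48 and 6.59 in P0, and 7.09, 7.30, 7.11 and 7.18 in P3. They were 6.68, 6.61, 6.70 and 6.68 in P7, and 3.29, 3.04, 3.14 and 2.95 in P15. P15 was low in all 4 libraries, P3 lay above the rest without overlap, and P0 and P7 overlapped. The log2 fold change was 0.62 (SE 0.060) from P0 to P3 and -0.50 from P3 to P7, each short of the fold threshold. From P7 to P15 it was -3.56 (SE 0.060), or 13.2-fold lower in mean CPM, and against P0 it was -3.45, or 12.2-fold lower.

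CALD1 (chr7:134744252-134970729, plus strand) encodes caldesmon, which binds actin, tropomyosin and myosin and inhibits the actomyosin ATPase. Its log2 values were 6.34, 6.28, 6.27 and 6.34 in P0, and 7.15, 7.19, 7.18 and 7.16 in P3. They were 6.31, 6.28, 6.19 and 6.18 in P7, and 4.61, 4.69, 4.75 and 4.62 in P15. The order was the one seen for TAGLN, with P3 highest and P15 lowest, both apart from all other libraries, while P0 and P7 overlapped. P3 was above P0 by 0.86 (SE 0.039), or 1.83-fold, and P7 was below P3 by -0.93, so that neither step reached a log2 fold change of 1. P15 was lower than P7 by -1.57 and than P0 by -1.64 (SE 0.039 each), or 3.05-fold and 3.20-fold.

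The tropomyosin genes were flat or falling from the start. TPM1 (chr15:63042620-63071915, plus strand) had log2 values of 9.06, 9.02, 9.04 and 9.02 in P0, 8.96, 9.02, 8.98 and 9.01 in P3, and 8.99, 8.93, 8.95 and 8.99 in P7. In P15 they were 7.59, 7.56, 7.68 and 7.68. P3 overlapped both P0 and P7, P0 lay just above P7 without overlap, and P15 stood apart below all of them, by -1.34 against P7 and -1.41 against P0 (SE 0.030 each), or 2.53-fold and 2.66-fold. TPM1 has 22.7% of its exonic bases in common with genes on the opposite strand, of which TPM1-AS takes 18%.

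TPM2 (chr9:35681992-35690056, minus strand), which encodes beta-tropomyosin, had log2 values of 9.19, 9.18, 9.10 and 9.16 in P0, 8.87, 9.03, 8.88 and 8.94 in P3, and 8.67, 8.54, 8.65 and 8.67 in P7. In P15 they were 8.02, 8.07, 7.97 and 8.08. No phases overlapped, and every phase was below the one before it. The steps were -0.23, -0.30 and -0.60 (SE 0.038 each), and only the whole span from P0 to P15, -1.12 or 2.18-fold, passed the fold threshold.

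CNN2 (chr19:1026586-1039068, plus strand) encodes the calponin found in many non-muscle cells, where it binds actin. Log2 values were 7.68, 7.87, 7.77 and 7.76 in P0, 7.81, 7.92, 7.87 and 7.85 in P3, and 7.77, 7.74, 7.81 and 7.78 in P7. In P15 they were 7.27, 7.38, 7.36 and 7.35. P0 overlapped both P3 and P7, P3 and P7 shared the value 7.81, and P15 lay below all other libraries by a small step, -0.43 (SE 0.036) against P0, or 1.35-fold. The changes from P0 to P3 (0.09) and from P3 to P7 (-0.09) were the smallest of those that passed the adjusted p alone.

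ACTA2 (chr10:88935074-88991339, minus strand) encodes smooth muscle alpha-actin, a marker of smooth muscle and of myofibroblasts, and it was close to 1 CPM throughout. Its log2 values were 1.57, 1.66, 1.22 and 1.49 in P0, 1.31, 1.5, 1.55 and 1.38 in P3, and 1.83, 1.82, 1.96 and 1.83 in P7. In P15 they were 1.24, 1.15, 1.02 and 0.79. P7 was above all other libraries, P0 and P3 overlapped, and P15 overlapped P0 through its highest library only. P7 was above P3 by 0.43 (SE 0.11), or 1.54-fold in mean CPM, and P15 was below P7 by -0.81, or 2.43-fold, neither past the fold threshold. Of the exonic bases of ACTA2, 29.1% are shared with ACTA2-AS1 and 6.88% with FAS, both on the opposite strand. An unnamed transcript on the same strand shares 7.13%. FAS had log2 means of 5.33, 5.55, 5.61 and 4.16 in P0, P3, P7 and P15, and its part in the ACTA2 counts was not tested.

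The 3 remaining genes were near the detection limit, at which 3 counts amount to 0.060 to 0.0888 CPM in a library. ACTG2 (chr2:73892314-73919865, plus strand) encodes the gamma-actin of enteric smooth muscle. Its log2 values were 0.07, 0, 0 and 0.15 in P0, 0.34, 0.32, 0.13 and 0.31 in P3, 0.07, 0.06, 0 and 0 in P7, and 0, 0, 0.08 and 0 in P15. P3 was high in 3 libraries, the remaining P3 library lay within the range of P0, and P3 did not overlap P7 or P15. By estimated counts this is 32 in the 4 P3 libraries together, 6 in P0, 4 in P7 and 2 in P15, and values of 2 counts were 2.92 to 3.25 times as frequent among all genes of a library as values of 1 count, so that a read pair may have been counted as 2.

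CNN1 (chr19:11538767-11550323, plus strand), the calponin of differentiated smooth muscle, had log2 values of 0.21, 0.04, 0.30 and 0.08 in P0, 0.15, 0.26, 0.10 and 0.24 in P3, 0.45, 0.21, 0.16 and 0.21 in P7, and 0.38, 0.07, 0 and 0.32 in P15. LMOD1 (chr1:201896456-201946548, minus strand), leiomodin of smooth muscle, which nucleates actin filaments, had 0.18, 0.08, 0.20 and 0.08 in P0, 0.15, 0.14, 0.20 and 0 in P3, 0.11, 0.19, 0 and 0.07 in P7, and 0.20, 0.19, 0.29 and 0.18 in P15. For CNN1 every pair of phases overlapped, and no difference was detectable at this depth. LMOD1 in P15 overlapped P0, P3 and P7 as well.

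**Figure D2:**
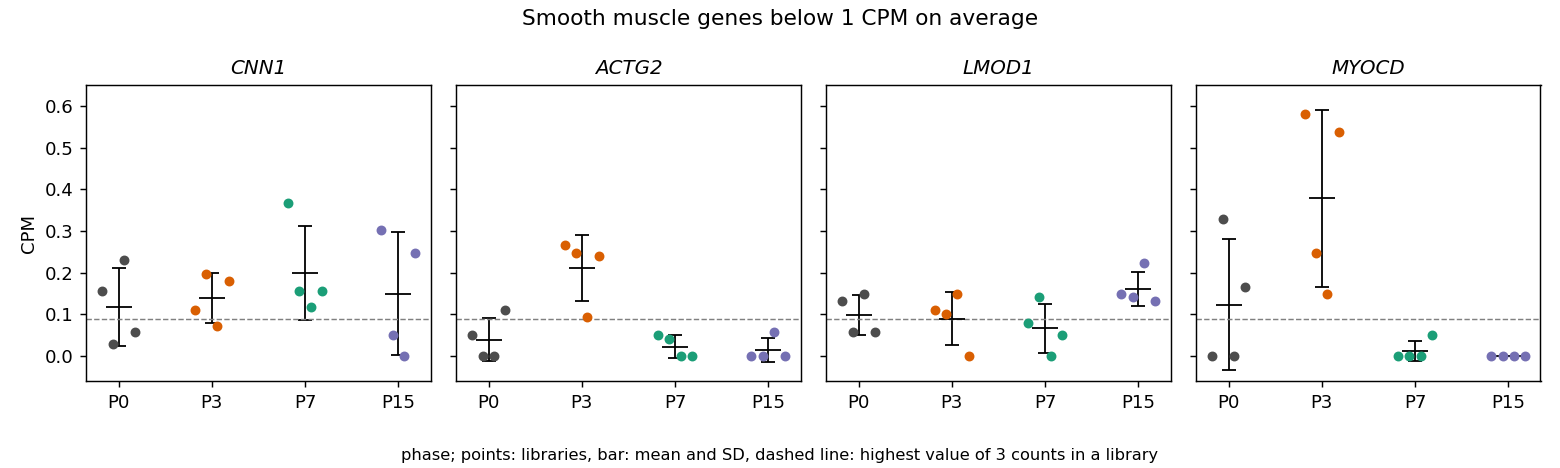
CPM (y axis, linear) of CNN1, ACTG2, LMOD1 and the coactivator gene MYOCD by phase (x axis), with points for the 4 libraries, bars for the mean and SD and a dashed line at 0.0888 CPM, the highest value that 3 counts take in a library. ACTG2 and MYOCD have their highest means in P3, at 0.212 and 0.379 CPM, and CNN1 and LMOD1 overlap between phases.

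Between P0 and P3, 1 of the 7 tested contractile genes was called, TAGLN, which was higher, where 4.47% of all tested genes were called with 1.95% higher and 2.51% lower. Between P3 and P7, TAGLN was again called, now lower, against 1.84% of all genes (0.845% lower, 0.996% higher). Between P7 and P15, MYL9, CALD1 and TPM1 were called lower, 3 of 7, against 25.5% of all genes (12.1% lower). Between P0 and P15 TPM2 and TAGLN joined these, 5 of 7, against 23.6% (11.5% lower). The 4 libraries of the phases compared did not overlap for 4, 5, 7 and 6 of the 7 genes in these comparisons, where 60.1%, 51.9%, 80.8% and 79.7% of all genes did not. The genes were selected on these changes, so nothing is read from the shares. The comparisons share libraries: P0 stands in the first and the fourth, P3 in the first and the second, P7 in the second and the third, and P15 in the third and the fourth.

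The median log2 fold change of the 7 genes was 0.09 from P0 to P3, -0.30 from P3 to P7, -0.81 from P7 to P15 and -1.12 from P0 to P15. Over all tested genes the medians were -0.03, 0.01, 0.06 and 0.04. By adjusted p alone, 5, 6, 7 and 7 of the 7 genes passed in these comparisons, where 68.7%, 58.2%, 86.4% and 86.2% of all genes did. The 7 genes were selected on such changes, so nothing is read from these counts.

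**Figure D3:**
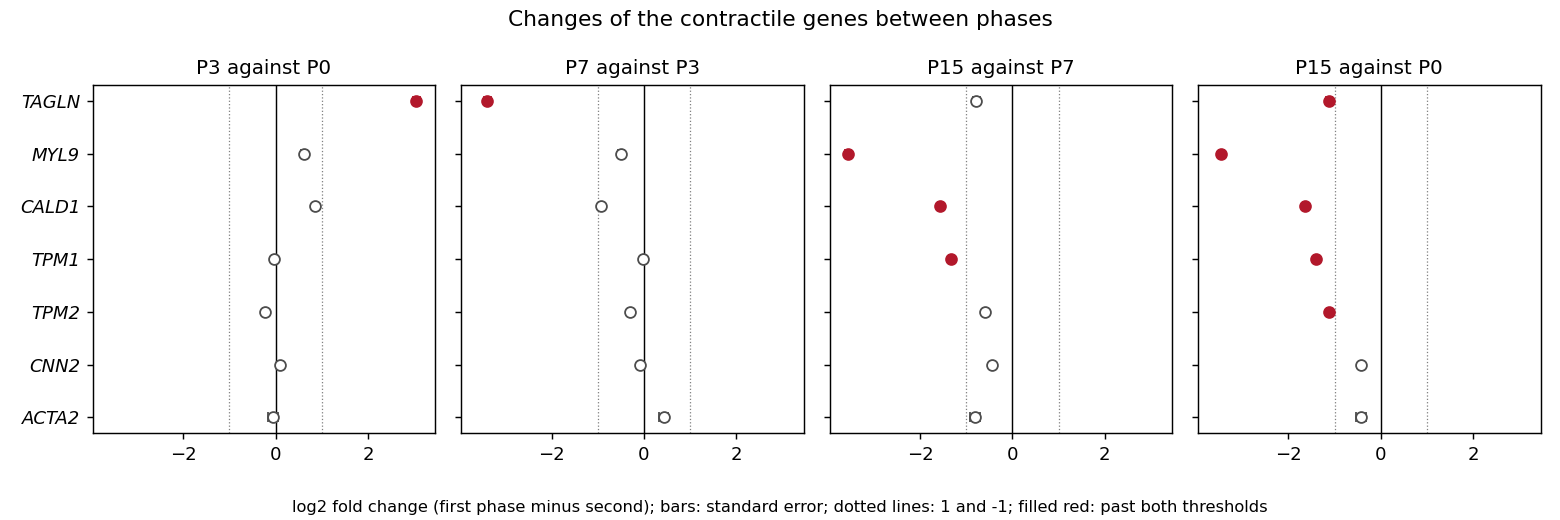
Log2 fold change (x axis, first phase minus second) of the 7 tested contractile genes in 4 comparisons of phases, with bars for the standard error, dotted lines at 1 and -1 and filled points for genes past both thresholds. TAGLN is at 3.05 in P3 against P0 and at -3.39 in P7 against P3, and MYL9 is lowest in both comparisons of P15, at -3.56 and -3.45.

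Added up, the 10 genes took 1503 ± 25 CPM in P0 (SD over 4 libraries) and 1673 ± 56 in P3, then 1305 ± 31 in P7 and 661 ± 12 in P15. TAGLN held 1.06 to 1.48% of that sum in P0, 9.21 to 9.59% in P3, 1.04 to 1.14% in P7 and 1.15 to 1.23% in P15. TPM1 and TPM2 together held 71.6 to 74.0% in P0 and 59.3 to 59.7% in P3. These are shares of reads, which long transcripts raise, and not of molecules.

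Within the group, likeness of profile was measured as the root mean square difference over the 16 libraries of log2 values centred on the mean of each gene. The closest pairs were ACTA2 and CNN2 (0.23), TPM2 and CNN2 (0.26) and TPM1 and TPM2 (0.27). The measure takes in the size of the changes as well as their shape, so genes that move little come out close. ACTA2 had its highest mean in P7 and CNN2 in P3. CALD1 was closest to TPM1 (0.44), MYL9 to CALD1 (0.80) and TAGLN to CALD1 (0.96). For every one of the 7, genes outside the group were closer than its nearest fellow: the fellow ranked 18 among all tested genes for TAGLN, 374 for MYL9, 383 for CALD1, 806 for ACTA2, 1055 for TPM1, 1286 for TPM2 and 3304 for CNN2. The fellows are few beside all tested genes, so closer genes outside the group are almost sure in advance. Nothing is read from these ranks about how alike the group is. The 5 tested genes closest to TAGLN were ESM1 (0.54), a secreted proteoglycan also called endocan, GABBR2 (0.61), a GABA-B receptor subunit, IL11 (0.69), a cytokine, FST (0.70), which encodes the activin antagonist follistatin, and TNFAIP3 (0.77), an inhibitor of NF-kB signalling. All 5 were chosen for this likeness, and they had their highest means in P3.

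**Figure D4:**
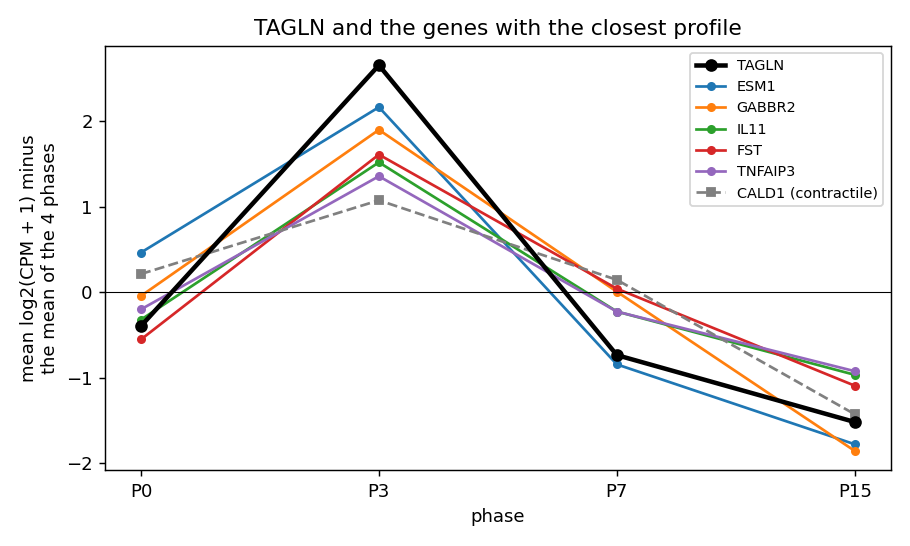
Mean log2(CPM + 1) of 4 libraries minus the mean of the 4 phases (y axis) by phase (x axis) for TAGLN, the 5 tested genes with the closest profile and CALD1, the closest of the other contractile genes. All 7 lines peak in P3 and are lowest in P15, with a smaller peak for CALD1, whose P3 mean of 7.17 is 0.86 above P0.

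SRF (chr6:43171269-43181506, plus strand) had log2 values of 5.79, 5.73, 5.79 and 5.82 in P0, 6.14, 6.08, 6.09 and 6.11 in P3, 5.87, 5.69, 5.70 and 5.79 in P7, and 5.89, 5.90, 5.98 and 5.96 in P15. P3 lay above every other phase without overlap, by 0.32 over P0 (SE 0.040, adjusted p = 1.9e-07 limma, Benjamini-Hochberg). From P3 to P7 it fell by 0.34 on the log2 scale (adjusted p = 1.4e-07, limma), and in P15 it was 0.15 above P0 (adjusted p = 0.0015, limma), opposite in sign to all 7 contractile genes. None of these steps reached the fold threshold.

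MRTFA, listed as MKL1, and MRTFB, listed as MKL2, encode the coactivators of SRF that are expressed in most cells. Along the phases from P0 to P15, MRTFA had log2 means of 5.49 ± 0.07, 5.38 ± 0.13, 5.23 ± 0.08 and 5.08 ± 0.09 (SD over 4 libraries). MRTFB had 5.76 ± 0.11, 5.31 ± 0.07, 5.19 ± 0.04 and 5.04 ± 0.18. Neither was highest in P3. From P0 to P15 the log2 fold change was -0.41 for MRTFA (SE 0.059, adjusted p = 5.9e-07) and -0.73 for MRTFB (SE 0.067, adjusted p = 4.0e-10, both limma, Benjamini-Hochberg), below the fold threshold in each case.

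MYOCD encodes myocardin, the SRF coactivator of heart and smooth muscle, and it was too low for the fit. Its log2 values were 0, 0.41, 0 and 0.22 in P0, 0.66, 0.32, 0.20 and 0.62 in P3, 0, 0, 0 and 0.07 in P7, and 0 in each P15 library. P3 overlapped P0 and lay above P7 and P15. An exact permutation test, two-sided, of P7 against P3 gave p = 0.0286, the smallest possible for 4 libraries against 4, and 0.114 after adjustment over 4 comparisons, and P3 against P0 gave p = 0.143.

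The list of SRF-MRTF regulators, which holds the 4 genes above with ternary complex factors and LIM coregulators, had 11 of 13 genes tested. None was called from P0 to P3, where 4.47% of all tested genes were. By limma's adjusted p alone 6 were higher and 4 lower, where 4162 of the 13249 tested genes were higher and 4938 lower. From P0 to P15 only TGFB1I1 was called, lower, where 11.5% of all tested genes were called lower. TGFB1I1 encodes Hic-5, a focal adhesion protein and SRF coregulator, and its log2 mean went from 6.30 ± 0.11 to 4.57 ± 0.07, a difference of -1.73 (SE 0.053). It was named because of this change, so no p-value is given. The medians of the list were 0.21 in P3 against P0 and 0.15 in P15 against P0.

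The other SRF-MRTF target genes, such as VCL, ZYX, FLNA, ACTN1 and MYH9, were all tested, 13 of 13. None was called in P3 against P0 or in P7 against P3, where 4.47% and 1.84% of all genes were. By adjusted p alone, 11 were higher and 1 lower in P3 against P0, with a median of 0.30 and a range of -0.52 to 0.57, beside the 4162 higher and 4938 lower of all genes. From P3 to P7, 2 were higher and 9 lower, with a median of -0.29, where 4008 of all genes were higher and 3705 lower. In P15 against P0, 6 were higher and 6 lower with a median of 0.14, where 6002 of all genes were higher and 5421 lower. FBLIM1, which encodes the filamin-binding protein migfilin, was the only one called in P15 against P0, where 23.6% of all genes were. It went from 7.38 ± 0.05 to 5.33 ± 0.10, a log2 fold change of -2.05 (SE 0.041).

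**Figure D5:**
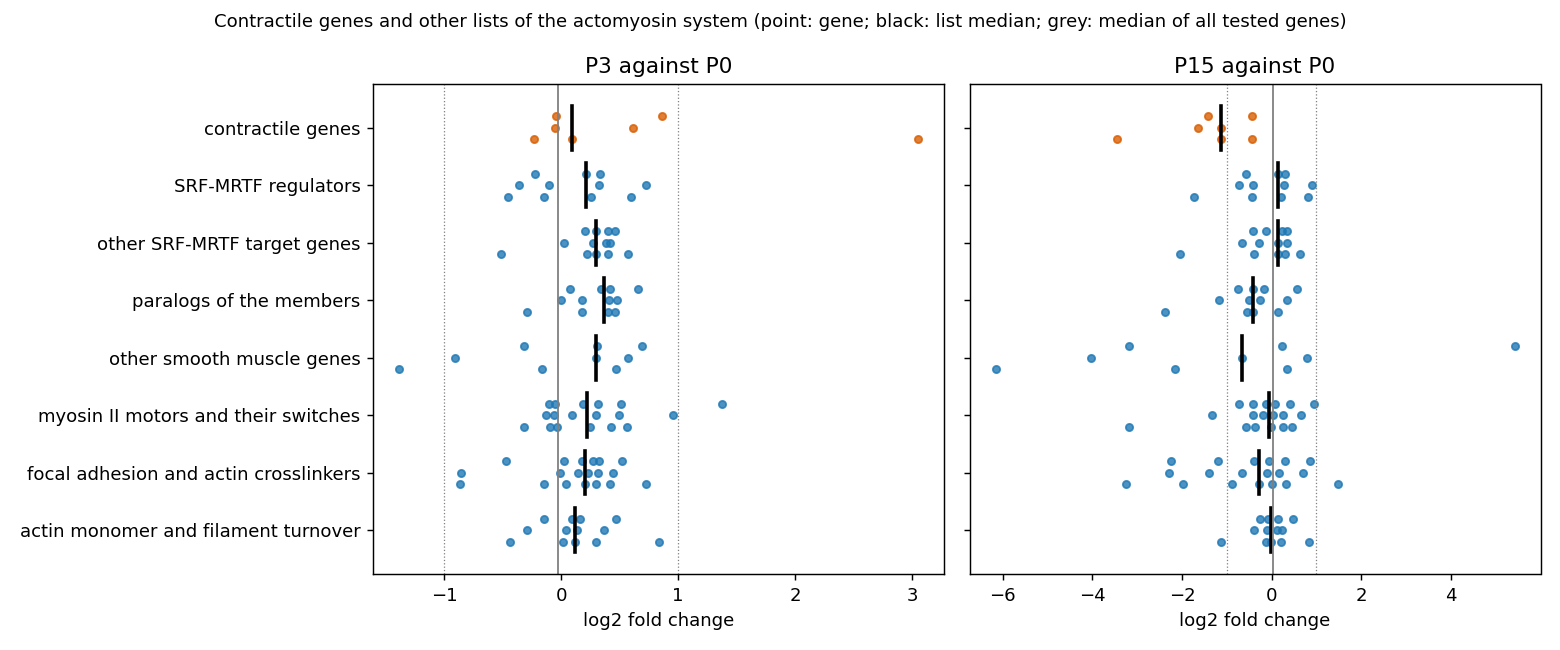
Log2 fold change (x axis) of each tested gene in the contractile genes (orange) and in 7 other gene lists of the actomyosin system (blue) for P3 against P0 and P15 against P0, with a black bar at the median of a list, a grey line at the median of all tested genes and dotted lines at 1 and -1. The contractile genes have a median of 0.09 in P3 against P0 with TAGLN alone beyond 1, and a median of -1.12 in P15 against P0.

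The closest relatives of the contractile genes gave a reference that uses the same protein families. The gene lists share genes, so their counts are not independent. ACTB and ACTG1 are paralogs and also other SRF-MRTF target genes, and VCL, ZYX, FLNA, MYH9 and MYLK also recur between lists. Of 17 listed paralogs, 12 were tested. None was called in P3 against P0 or P7 against P3, where 4.47% and 1.84% of all genes were. MYL6 and TMOD1 were called lower in P15 against P7 and against P0, where 12.1% and 11.5% of all genes were called lower. By adjusted p alone 10 paralogs were higher and 1 lower in P3 against P0, where 4162 of all genes were higher and 4938 lower. The list medians were 0.37, -0.23, -0.39 and -0.41 in the order of comparisons above. A search for stretches of 100 bases shared between transcripts found none in common between a contractile gene and its paralogs, so reads of that length separate them.

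Among the actins, ACTB and ACTG1, the actins of all non-muscle cells, parted in P15. ACTB had log2 means of 12.25, 12.71, 12.42 and 11.84 in P0, P3, P7 and P15, and ACTG1 had 12.14, 12.54, 12.25 and 12.48. In P15 against P0 ACTB was at -0.41 (SE 0.044, adjusted p = 5.8e-09) and ACTG1 at 0.35 (SE 0.039, adjusted p = 1.5e-08, both limma, Benjamini-Hochberg). ACTC1, cardiac alpha-actin, was too low to be tested, with 0.93, 0.38, 0.79 and 0.66 in P15 and at most 0.30 in any library of the other phases.

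TAGLN2, the transgelin of non-muscle cells, stayed between log2 means of 9.17 (P15) and 9.52 (P3), in contrast to the range of TAGLN. TPM3 and TPM4 had 10.12 and 10.19 in P3, above P0 by 0.41 and 0.66, where TPM1 and TPM2 were not higher (-0.04 and -0.23). In P15 against P0, TPM3 was at -0.74 (SE 0.027, adjusted p = 3.3e-18, limma, Benjamini-Hochberg), while TPM4 was at 0.15 and changed sign with quantile normalization (-0.03). CNN3 fell by 0.41 on the log2 scale over the same span.

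The light chains of myosin II did not move alike. MYL6, an essential light chain, had log2 means of 9.02 ± 0.06, 9.49 ± 0.03, 9.14 ± 0.05 and 7.85 ± 0.06 along the phases, and P15 was at -1.17 against P0 (SE 0.034, adjusted p = 4.3e-20, limma, Benjamini-Hochberg). MYL12A and MYL12B encode the regulatory light chains closest to MYL9. MYL12A was 0.56 higher in P15 than in P0 (SE 0.032, adjusted p = 2.7e-14) and MYL12B was at -0.50 (SE 0.030, adjusted p = 1.4e-13, both limma, Benjamini-Hochberg), beside -3.45 for MYL9. TMOD1, a pointed-end capping protein related to leiomodins, fell from 2.92 ± 0.05 to 0.55 ± 0.10 (adjusted p = 2.3e-16, limma).

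Of 18 other genes of the smooth muscle programme, 9 were above 1 CPM on average and were tested. In P15 against P0, 4 of these 9 were called lower, where 11.5% of all tested genes were. FLNC, which encodes the filamin of muscle, had log2 values of 6.98, 6.91, 6.90 and 7.01 in P0, 7.54 to 7.71 in P3, 6.96 to 7.11 in P7 and 0.91, 0.73, 0.59 and 0.95 in P15. The loss was 165-fold in mean CPM (log2 fold change -6.16, SE 0.060). JPH2, junctophilin 2, went from 4.13 ± 0.12 to 0.10 ± 0.14, with 2 of the 4 P15 libraries at 0. NPNT, the matrix protein nephronectin, passed the filter only through P15, where it was high, so it is given without a test, at log2 means of 0.23 ± 0.14 in P0 and 5.65 ± 0.06 in P15.

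MYLK encodes the myosin light chain kinase that phosphorylates MYL9, and its mean was highest in P7. Of the 7 tested contractile genes, ACTA2 alone was also highest in P7. The log2 values of MYLK were 3.61, 3.39, 3.47 and 3.59 in P0, and 3.29, 3.04, 3.24 and 3.24 in P3. They were 5.51, 5.45, 5.46 and 5.49 in P7, and 0.29, 0.33, 0.39 and 0.32 in P15. P7 was high and P15 low in all libraries, without overlap between phases. The gene rose by 2.28 from P3 to P7 (SE 0.070) and then fell by 5.15 on the log2 scale from P7 to P15, or 168-fold in mean CPM.

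Of the myosin II motors and their switches, 18 of 19 were tested. In P15 against P0, 2 were called lower, MYLK and PPP1R14C, where 11.5% of all tested genes were. PPP1R14C, an inhibitor of protein phosphatase 1, was at -1.33 (SE 0.10). The median of the list was -0.06. RND3, a small GTP-binding protein, was the only one called in P3 against P0, at 1.38 (SE 0.036), where 4.47% of all tested genes were called. It is named here after its value was seen, so it is given without a p-value.

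Focal adhesion proteins and actin crosslinkers had 19 of 20 genes tested. In P15 against P0, 6 were called lower, where 11.5% of all tested genes were, and the list median was -0.29. PDLIM1, a PDZ and LIM domain adaptor of stress fibres, fell from 8.20 ± 0.03 to 4.96 ± 0.08 (log2 fold change -3.24, SE 0.036), and TNS3, tensin 3, by 2.29 (SE 0.043). In the list of actin monomer and filament turnover, all 13 genes were tested. Only CFL1, which encodes cofilin, was called in P15 against P0, where 23.6% of all tested genes were. CFL1 was at -1.13 (SE 0.030).

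Markers of other cell types moved with phase beside these results. The 6 epithelial and urothelial markers summed to 2075 to 2153 CPM in P0, 2347 to 2484 in P3, 1666 to 1814 in P7 and 673 to 751 in P15. In P15 against P0, 4 of the 5 that were tested were called lower, where 11.5% of all tested genes were. KRT7 went from a log2 mean of 9.90 in P0 to 3.64 in P15, while KRT18 was at 8.88 and 9.31. The 7 fibroblast markers summed to 7.08 to 8.34 CPM in P0, 1.78 to 6.16 in P3, 5.52 to 6.54 in P7 and 46.6 to 51.7 in P15, where DCN was at 0. The rise lay in COL1A1, with log2 means of 2.59 in P0 and 4.64 in P15, and COL3A1, with 0 and 4.51. PDGFRB was at 1.90 and 1.75, and COL1A2, PDGFRA and LUM had log2 means of at most 0.31 in P15. The 3 endothelial markers summed to 5.95 to 7.95 CPM in P0 and to at most 1.09 elsewhere, and the 3 leukocyte markers to at most 0.198. Within P3 the highest fibroblast sum was that of replicate 3. The part of these shifts in the contractile genes was not tested.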

How the data were processed

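RNA-sequencing values of 16 libraries were used, 4 for each of the phases P0, P3, P7 and P15, grouped by the phase in the labels. The authors aligned paired-end reads with STAR 2.6.1a to GRCh38, counted them on genes with featureCounts and scaled the counts to CPM. The deposited table holds log2(CPM + 1) with 2 decimals, and its linear values sum to 999894 to 1000095 CPM per library. Quantile normalization and median centring, which the methods also name, are not in the deposited log2 values. The strand setting and the handling of reads that match several genes are not given in the sources used here, nor which libraries shared a sequencing run.

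The phase comparisons used limma 3.58.1 (R 4.3.3) on the deposited log2 values, with a coefficient for each phase and eBayes with a trend. The p-values were adjusted by Benjamini and Hochberg's method over all 13249 genes that averaged more than 1 CPM. The procedure was checked on simulated data. MYOCD was compared by exact permutation with scipy 1.17.1. Sums, profiles and sequence searches used Python 3.11.15, numpy 2.4.6 and pandas 2.3.3, and figures matplotlib 3.10.9. Positions and exons are from GENCODE on GRCh38 and promoters from RefSeq (GRCh38.p14). Estimated counts behind low values come from the step between these values, and detection limits cover counting error only.

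The contractile genes and the gene lists were chosen with earlier results of these data known. Named are the 10 genes, SRF, MRTFA, MRTFB and MYOCD, the paralogs, of each other list up to 2 genes at each end of the log2 fold change of P15 against P0 among those called, and the nearest profiles. The genes named from the ends of these other lists were picked by that change, so they are given without p-values. A gene of the focal adhesion list is not reported here. Replicate numbers are those of the sample descriptions, which differ from the number in the title for 14 of the 16 libraries. Neither numbering pairs the libraries: deviations from the phase means of same-numbered libraries had correlations of -0.15 to 0.22 by description and -0.12 to 0.22 by title. Results were recomputed with 3 other filters on low values, with pseudocounts of 0.1 and of 5, after quantile normalization or a shift to a common median, with either replicate number as a block, without the variance trend, on each pair of phases by itself, without a fold threshold, and leaving out every library in turn.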

Additional observations from a re-analysis of the deposited data

Results flagged for a closer look

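Within a phase, 16 of 184 groups of 4 libraries held 1 library far from the other 3, by a gap to the nearest library over the whole range (Dixon's ratio) above the critical value of that test. For continuous values chance gives about 1 in 20, or 9 of 184. Where 3 libraries share a value, as with 1 library above 0, the ratio is 1.0 whatever the gap. The 16 groups, which include such cases, are therefore not weighed against 9. They were spread over 11 libraries with at most 2 in any of them.

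Of the contractile genes, ACTA2 in P7 had replicate 3 at 1.96, above 1.82 to 1.83 (ratio 0.929), and TPM2 in P7 had replicate 2 at 8.54, below 8.65 to 8.67 (0.846). ACTG2 in P3 had replicate 3 at 0.13, below 0.31 to 0.34 (0.857), and in P15 it was above 0 in replicate 3 only (1.0). MYOCD in P7 was above 0 in replicate 4 only (1.0).

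Among the paralogs, ACTB in P3 was higher in replicate 2 (0.929), TMOD3 in P15 was higher in replicate 1 (0.889), CNN3 in P3 was lower in replicate 4 (1.0) and TPM4 in P15 was lower in replicate 3 (0.846). ACTA1 in P7, LMOD2 in P0 and LMOD3 in P0, P7 and P15 were each above 0 in 1 library (1.0 each). CFL1 in P3 was lower in replicate 4, at 10.45 against 10.52 to 10.53 (0.875). The summed fibroblast markers in P3 were higher in replicate 3, at 6.16 CPM against 1.78 to 2.48 CPM (0.841). The differences were small beside the changes between phases described above for ACTA2, TPM2 and CFL1.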

How the results depend on the processing

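Without the fold threshold, 5, 6 and 7 contractile genes passed in P3 against P0, P7 against P3 and P15 against P7, where 1, 1 and 3 were called with it, and 9100, 7713, 11452 and 11423 of all genes passed in the 4 comparisons. All genes called numbered 592, 244, 3377 and 3129. With 1 CPM required in all 16 libraries, which tests fewer genes and not ACTA2, the first 2 counts were 381 and 139. With a pseudocount of 0.1 they were 939 and 445, and with a pseudocount of 5 the 4 counts were 290, 106, 2166 and 1976. A pseudocount of 0.1 added ACTA2 to the genes called in P15 against P7 (4), and one of 5 dropped TAGLN in P15 against P0 (4, log2 fold change -0.86). Leaving out each library in turn gave 592 to 614, 239 to 249, 3352 to 3382 and 3103 to 3139 genes and left the number of contractile genes called at 1, 1, 3 and 5. The replicate block by either number gave the same counts, with 592 and 3129 genes for P3 and P15 against P0, and the libraries share only a number.

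Small values changed sign. ACTA2 in P3 against P0 was 0.041 with quantile normalization, and without single libraries of either phase -0.14 to 0.0083. With quantile normalization TPM1 in P7 against P3 was 0.0023, PDLIM1 in the same comparison 0.012 and TPM4 in P15 against P0 -0.032. Leaving out single libraries, CNN3 in P3 against P0 ranged from -0.019 to 0.028 and PDLIM1 in P7 against P3 from -0.029 to 0.0075. The cause was not tested. Of 752 values of contractile genes under alternatives, 18 lost the adjusted p, all of CNN2. Depth limits CNN1, ACTG2, LMOD1 and MYOCD, which rest on 0 to 22 estimated counts per library.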

Other observations

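Within P3, replicate 2 had the highest value, ties included, of 6 of the 7 tested contractile genes (all except ACTA2), and of 31.3% of all tested genes. Within P0, replicate 2 was highest for TAGLN, ACTA2, CNN2 and MYL9, 4 of 7, and for 33.6% of all tested genes. No other library was highest for more than 4. The pattern was looked for after the values were seen and has no test.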
